A study of Arabidopsis thaliana with 24 samples.

Results

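Guard cells are the paired epidermal cells that open and close each stomatal pore, and they do so by moving potassium and anions across their membranes. Potassium enters through inward-rectifying channels such as KAT1 and KAT2 and leaves through the outward rectifier GORK, while the anion channels SLAC1 and QUAC1 release anions when the pore closes. New guard cells come from a lineage in the young leaf epidermis that is patterned by the receptor-like proteins TMM and ERL1 and completed by the transcription factor FAMA. The genes described here are 10 such loci among the 20514 on the arrays. They were chosen by locus identifier for these roles, with no cut on a measured value, though earlier results of these data were known. They are the potassium channel genes KAT1 (AT5G46240), KAT2 (AT4G18290) and GORK (AT5G37500), the anion channel genes SLAC1 (AT1G12480) and QUAC1 (AT4G17970), the kinase gene HT1 (AT1G62400), the MYB factor gene MYB60 (AT1G08810), and the lineage genes FAMA (AT3G24140), TMM (AT1G80080) and ERL1 (AT5G62230). RefSeq lists SLAC1 as OZS1, QUAC1 as ALMT12 and FAMA as FMA.

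Total RNA came from rosette leaves of the Arabidopsis thaliana accessions Kas-1 (stock CS903) and Tsu-1 (stock CS1640), and was hybridised as biotin-labelled cRNA. Plants grew singly in pots in a chamber with a 10 h photoperiod. Dry pots were let down in daily steps to about 50% of their water by day 5, while the wet ones stayed near 90% throughout. There were 6 arrays for each of Kas-1 wet, Kas-1 dry, Tsu-1 wet and Tsu-1 dry, 24 in all; no plant age is given in the sources used here, and the plants carried no transgene named in the labels.

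The design text speaks of 3 biological replicates per combination where 6 arrays were deposited, and no label says which arrays shared a plant or an extract. Errors and p-values below are therefore between arrays, and part of that spread may be technical. Array medians lay between 6.77 and 6.87. Within groups, arrays correlated across all loci at 0.955 to 0.997, the closest being Kas-1 dry 4 and 5. The leaf genes RCA and GAPA averaged 13.5 and 13.3, and the 4 flower markers all averaged below 5.21, the lower quartile of all locus means. Because the data hold no detection calls, 5.21 is used here as the level at or below which signal was not told apart from background.

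All 10 genes were in the table and all were tested, in a limma fit over every locus. The mean of HT1 lay below 5.21 in each of the 4 groups, and that of KAT1 in both Kas-1 groups, so their values there bound the transcript level and set no exact fold. Over all arrays the means of KAT2, GORK, QUAC1, FAMA and ERL1 lay above 6.19, the 40th percentile of locus means, and those of MYB60, SLAC1, TMM and KAT1 between 5.21 and 6.19. Levels of different genes come from different probes and are not compared with each other. In RNA of whole leaves, fewer guard cells and less RNA per guard cell cannot be told apart.

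**Figure D1:**
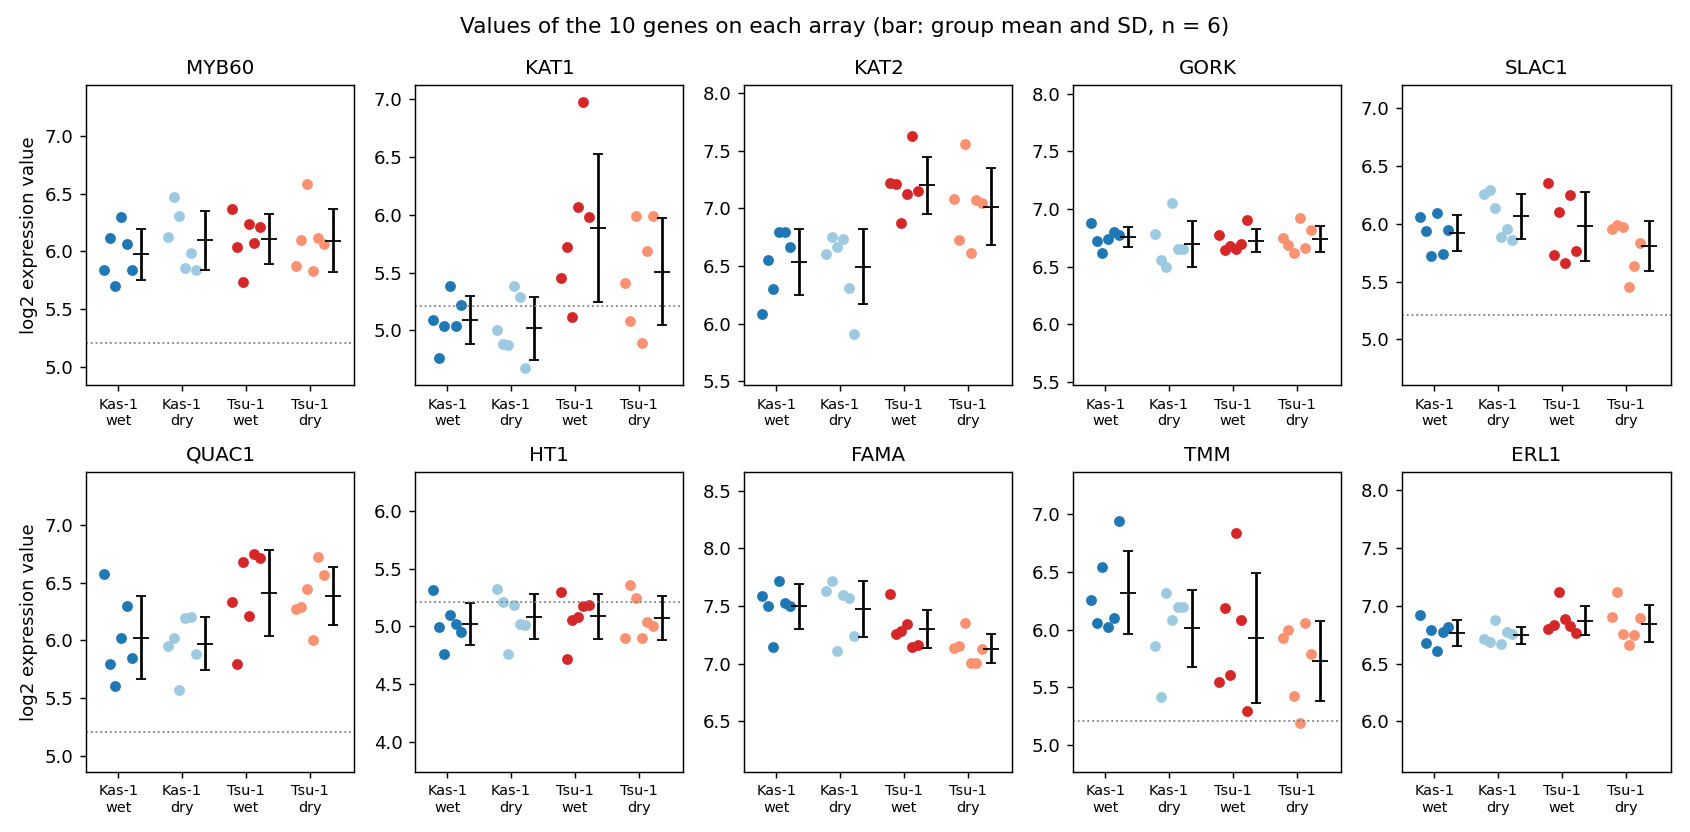
Log2 expression value (vertical axis, of the same span in every panel) of each gene on each of the 24 arrays, by group (horizontal axis); bars are group means with SD (n = 6) and the dotted line, where it falls within a panel, is the lower quartile of all locus means, 5.21. KAT1, KAT2 and QUAC1 sit higher in Tsu-1 and FAMA sits lower, while wet and dry arrays of an accession overlap for each of the 10 genes.

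The first comparison asked whether these genes differed after slow, mild drying. None of the 10 passed the test. Averaged over the accessions, their log2 changes, dry minus wet, ran from -0.25 for TMM to 0.05 for MYB60, with a smallest adjusted p of 0.740. By limma 0 of 10 were called, and 0 of 10 had an unadjusted p under 0.05, against 7.90% of all loci. Of all loci 0.0487% were called (10 of 20514), so a count of 0 among 10 does not set these genes apart. The median change was -0.03 for the 10 genes and -0.01 for all loci.

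Among the potassium channel genes, GORK had the narrowest interval. The Kas-1 arrays averaged 6.76 ± 0.09 under wet and 6.70 ± 0.20 under dry conditions, and the Tsu-1 arrays 6.73 ± 0.10 and 6.74 ± 0.11 (SD, n = 6). The averaged change was -0.02, with a 95% interval of -0.14 to 0.10. GORK values were thus close to each other in all 4 groups, and an averaged change larger than 0.14 in either direction lies outside that interval. Within an accession the intervals were wider, -0.23 to 0.11 in Kas-1 and -0.15 to 0.18 in Tsu-1. KAT1 had an averaged change of -0.23 (95% interval -0.56 to 0.11) and KAT2 of -0.11 (-0.35 to 0.13), intervals that allow a fall of more than 0.3 as well as none. Without Tsu-1 wet 11 the averaged change of KAT1 was -0.12.

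SLAC1, the slow anion channel needed for closure in response to abscisic acid and carbon dioxide, had a change of -0.01 (95% interval -0.19 to 0.17), and QUAC1, the rapid anion channel, of -0.04 (-0.29 to 0.21). MYB60 is a guard cell transcription factor linked to stomatal opening. Its Kas-1 values ran from 5.70 over a median of 5.95 to 6.30 in wet soil, and from 5.84 over 6.05 to 6.47 in dry soil. The Tsu-1 values ran from 5.73 over 6.14 to 6.37 in wet soil and from 5.83 over 6.08 to 6.59 in dry soil. All 4 groups overlapped, and the change of MYB60 was 0.05 (-0.14 to 0.25).

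Of the lineage genes, TMM, a leucine-rich repeat receptor-like protein that sets the spacing of stomata, had the largest change in size, -0.25 (SE 0.16, 95% interval -0.57 to 0.07, adjusted p = 0.740). It was -0.31 in Kas-1 and -0.20 in Tsu-1. The averaged change was -0.16 without Tsu-1 wet 10, and that in Kas-1 was -0.19 without Kas-1 dry 2 and -0.18 without Kas-1 wet 12. FAMA had a change of -0.10 (-0.25 to 0.06) and ERL1, a receptor kinase of the ERECTA family, of -0.02 (-0.13 to 0.09). HT1, a kinase known for the stomatal response to carbon dioxide, had a change of 0.02, at signal not told apart from background.

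Within each accession none of the 10 passed the test either. Their median change was -0.10 in Tsu-1, with 9 of 10 negative, and -0.03 in Kas-1, with 7 of 10 negative. For all loci the median was -0.01 in each accession, and the medians were not tested. In Tsu-1, 0 of 10 genes were called by limma, against 0.00975% of all loci, and in Kas-1 0 of 10, against 0.00487%. None had an unadjusted p under 0.05 in either, and of 20514 loci 953 had in Tsu-1 and 1807 in Kas-1. Wet and dry arrays overlapped for each of the 10 genes in both accessions. The share of all loci without overlap was 0.210% for Tsu-1 and 0.829% for Kas-1. At such shares counts of 0 among 10 do not set these genes apart from other loci. The largest change within an accession was that of KAT1 in Tsu-1, from a mean of 5.89 ± 0.64 in wet to 5.51 ± 0.46 in dry soil (SD, n = 6), a difference of -0.38 with a 95% interval of -0.85 to 0.10. It was -0.16 without Tsu-1 wet 11, the array with the highest KAT1 value.

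Whether the accessions differed in their response was tested with the interaction, Tsu-1 minus Kas-1. Of the 10 genes 0 were called by limma, as were 0% of all loci (1133 of 20514 at an unadjusted p under 0.05), and 0 of the 10 had an unadjusted p under 0.05. The smallest p among the 10 belonged to SLAC1. SLAC1 averaged 5.92 (wet) and 6.06 (dry) among Kas-1 arrays, but 5.98 (wet) and 5.81 (dry) among Tsu-1 arrays. The difference in response was -0.32 (SE 0.17, 95% interval -0.68 to 0.04, adjusted p = 0.908), so the opposite signs of the SLAC1 means were not distinguished from the spread between arrays.

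**Figure D2:**
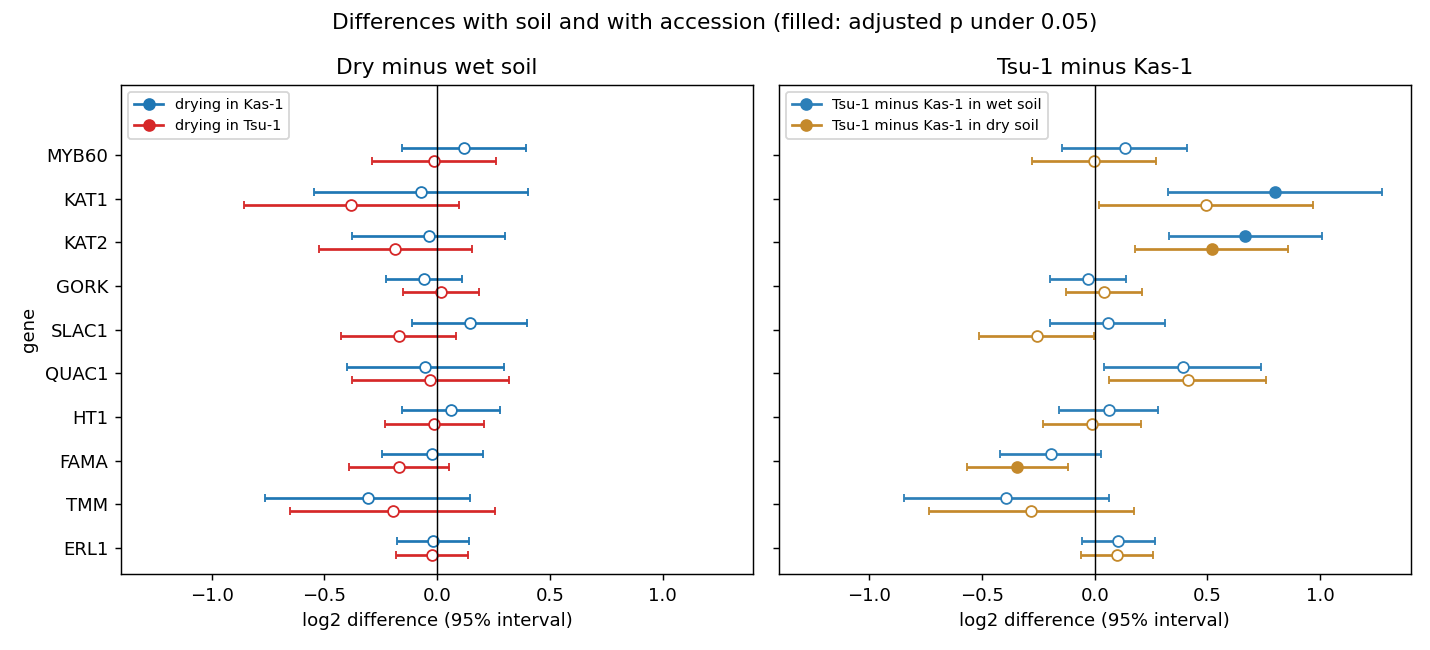
Log2 differences (horizontal axis) with 95% intervals for each gene (vertical axis), dry minus wet soil in each accession on the left and Tsu-1 minus Kas-1 in each soil on the right; filled points had an adjusted p under 0.05. No point is filled on the left, and on the right KAT1 in wet soil, KAT2 in both soils and FAMA in dry soil are filled.

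Next, Tsu-1 was set against Kas-1, to ask how the accessions differ in these genes whatever the soil. KAT1, KAT2 and QUAC1 were higher in Tsu-1 and FAMA was lower, while GORK, SLAC1, HT1, MYB60, TMM and ERL1 did not pass the test. The 4 of 10 called (40%) lie near the 35.0% of all loci called in this comparison. For the 3 higher genes the share of all loci higher was 17.2%, and for the 1 lower gene the share lower was 17.8%. The number of calls is therefore not particular to these genes, and the values of each gene are what follows.

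KAT2, a guard cell and phloem potassium channel gene, had the smallest adjusted p. In wet soil its values ran from 6.08 over a median of 6.61 to 6.80 in Kas-1 and from 6.87 over 7.18 to 7.63 in Tsu-1. In dry soil they ran from 5.91 over 6.63 to 6.75 in Kas-1 and from 6.61 over 7.06 to 7.56 in Tsu-1. In wet soil the accessions did not overlap, which held for 1 of the 10 genes and for 9.23% of all loci, and in dry soil 4 of 6 Tsu-1 arrays lay above all Kas-1 arrays.

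Averaged over the soils, the KAT2 signal of Tsu-1 was 1.51-fold that of Kas-1 (log2 difference 0.59, SE 0.12, adjusted p = 3.23e-04), with 11 of 12 Tsu-1 arrays above the Kas-1 median. The difference was 0.67 in wet soil (SE 0.16, adjusted p = 0.00543) and 0.52 in dry soil (SE 0.16, adjusted p = 0.0270). The order of the group means was Tsu-1 wet, Tsu-1 dry, Kas-1 wet and Kas-1 dry, and the soils of an accession did not differ beyond their spread. The dry soil call ended without Kas-1 dry 5 (adjusted p = 0.0608), Kas-1 dry 6 (0.0839) or Tsu-1 dry 3 (0.0818), with differences of 0.48, 0.40 and 0.41.

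KAT1, the inward potassium channel first known from guard cells, differed in the same direction. Its Kas-1 values ran from 4.76 over a median of 5.06 to 5.39 in wet soil and from 4.67 over 4.94 to 5.38 in dry soil. Its Tsu-1 values ran from 5.12 over 5.85 to 6.98 in wet soil and from 4.89 over 5.55 to 5.99 in dry soil. The highest value, 6.98, came from Tsu-1 wet 11, which was also the highest Tsu-1 wet array for KAT2 (7.63), and 9 of 12 Tsu-1 arrays lay above all Kas-1 arrays.

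Averaged over the soils the KAT1 signal was 1.56-fold higher in Tsu-1 (log2 difference 0.65, SE 0.16, adjusted p = 0.00315). Since the Kas-1 means of KAT1 lay below 5.21, this is a ratio of signals. It was called in wet soil (0.80, SE 0.23, adjusted p = 0.0157) and not in dry soil (0.49, SE 0.23, adjusted p = 0.139), but the soils were not shown to differ in it (interaction -0.31, 95% interval -0.98 to 0.36, adjusted p = 0.999). KAT1 and KAT2 encode related channels, and whether the probes of one also bound transcripts of the other was not tested.

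QUAC1 had Kas-1 values from 5.60 over a median of 5.93 to 6.58 in wet soil and from 5.57 over 5.99 to 6.20 in dry soil. Its Tsu-1 values ran from 5.79 over 6.51 to 6.75 in wet soil and from 6.00 over 6.36 to 6.72 in dry soil. The groups overlapped in both soils, although 11 of 12 Tsu-1 arrays lay above the Kas-1 median. QUAC1 was 1.32-fold higher in Tsu-1 averaged over the soils (log2 difference 0.40, SE 0.12, adjusted p = 0.0107), with 0.39 in wet (adjusted p = 0.106) and 0.41 in dry soil (adjusted p = 0.0874), neither of them called. The wet soil difference of QUAC1 was called without Kas-1 wet 7 (0.50, adjusted p = 0.0330) or Tsu-1 wet 8 (0.51, adjusted p = 0.0218), and the dry soil one when only those 2 groups were fitted (0.41, adjusted p = 0.0399).

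FAMA, the basic helix-loop-helix factor that ends the divisions of the lineage and starts guard cell identity, went the other way. Its Kas-1 values ran from 7.14 over a median of 7.52 to 7.72 in wet soil and from 7.11 over 7.58 to 7.71 in dry soil. Its Tsu-1 values ran from 7.14 over 7.27 to 7.60 in wet soil and from 7.01 over 7.13 to 7.36 in dry soil. The accessions overlapped in both soils, with 11 of 12 Tsu-1 arrays below the Kas-1 median.

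The FAMA signal was lower in Tsu-1 by 1.21-fold (log2 difference -0.27, SE 0.08, adjusted p = 0.00766). It was -0.34 in dry soil (SE 0.11, adjusted p = 0.0263) and -0.20 in wet soil (SE 0.11, adjusted p = 0.215), and the interaction was -0.15 (95% interval -0.46 to 0.17, adjusted p = 0.999). The dry soil call was close to its threshold. It ended without any one of Kas-1 dry 1 (adjusted p = 0.0510), 2 (0.0575), 4 (0.0588) and 5 (0.0560) or Tsu-1 dry 4 (0.0602) and 5 (0.0522), and with Kas-1 dry 4 and 5, which are close to each other, merged into a single array (-0.32, adjusted p = 0.0571). With numbers 3 apart averaged to 3 values per group it ended too (-0.34, adjusted p = 0.0853).

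Within a single soil, 2 of 10 genes were called in wet soil (KAT1 and KAT2), against 20.7% of all loci, and 2 of 10 in dry soil (KAT2 and FAMA), against 20.2%. In dry soil the accessions overlapped for each of the 10 genes, where 8.69% of all loci did not overlap. Over both soils they overlapped for each, where 3.12% of all loci did not. Among 10 genes these counts do not differ from those shares in a way that sets the genes apart.

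For the 6 other genes the averaged differences and their intervals were as follows. GORK had a difference of 0.01 (95% interval -0.11 to 0.12), HT1 of 0.03 (-0.13 to 0.18), MYB60 of 0.07 (-0.13 to 0.26) and SLAC1 of -0.10 (-0.28 to 0.08). These averaged intervals of GORK, MYB60 and SLAC1 lie within 0.3 of no difference in both directions, which does not bound the difference in a single soil. That of HT1 was measured at signal not told apart from background and sets no limit on a difference in its transcript. ERL1 had a difference of 0.10 (-0.01 to 0.22, adjusted p = 0.152). In dry soil SLAC1 differed by -0.26 (95% interval -0.51 to -0.002, adjusted p = 0.150), and in wet soil by 0.06. Of the dry Tsu-1 arrays, 3 of 6 lay below all dry Kas-1 arrays. With numbers 3 apart averaged the dry soil SLAC1 difference was called (-0.26, adjusted p = 0.0389).

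TMM was the gene nearest to a call among these 6. Its Kas-1 values ran from 6.02 over a median of 6.18 to 6.94 with wet soil and from 5.41 over 6.14 to 6.32 with dry soil. Its Tsu-1 values ran from 5.30 over 5.85 to 6.84 with wet soil and from 5.20 over 5.86 to 6.06 with dry soil, and the accessions overlapped in both. Of the 12 Tsu-1 arrays, 10 lay below the Kas-1 median. The averaged difference was -0.34 (SE 0.16, adjusted p = 0.0983), and it was called without Tsu-1 wet 10, the array with the 6.84 (-0.43, adjusted p = 0.0168), without Kas-1 dry 2, the array with the 5.41 (-0.40, adjusted p = 0.0438), and with array weights (-0.40, adjusted p = 0.0307). In wet soil TMM was called without Tsu-1 wet 10 (-0.57, adjusted p = 0.0379). Kas-1 dry 2 had the lowest array weight of all (0.396).

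Other genes of guard cell transport and signalling were read from a list of 36, of which 34 were on the arrays. On drying 0 of 34 were called by limma, and 0 of 34 had an unadjusted p under 0.05, against 7.90% of all loci. The smallest adjusted p was 0.752 and the median change 0.01. Between the accessions 8 were higher and 4 lower in Tsu-1, and 22 were not called, a share of 35.3% against the 35.0% of all loci, with a median difference of 0.07 against 0.01. OST1, the SnRK2 kinase that activates SLAC1 in abscisic acid signalling, was higher by 0.90 (adjusted p = 2.69e-05), with Kas-1 means of 6.68 (wet) and 6.61 (dry) and Tsu-1 means of 7.56 and 7.54. AKT2, a weakly rectifying potassium channel gene of the phloem and guard cells, was higher by 0.86, ABCG22, a transporter gene linked to stomatal water loss, by 0.79, RBOHF, an NADPH oxidase gene, by 0.77, and STP1, a sugar transporter gene, by 0.50. The lower genes were the carbonic anhydrase genes CA1 (-0.56) and CA4 (-0.19), which act in the carbon dioxide response, and the kinase genes MPK4 (-0.56) and MPK9 (-0.52).

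The list of stomatal lineage genes held 29, of which 28 were on the arrays. On drying 0 of 28 were called by limma, with a median change of -0.07. An unadjusted p under 0.05 was found for 6 of 28, a larger share than the 7.90% of all loci. Lower in dry soil were FLP, EPF2 (-0.36), ER (-0.34), BASL (-0.17) and ERL2 (-0.16), and CRSP was higher (0.72). The smallest adjusted p was that of FLP, a MYB factor gene that limits the last division (-0.33, adjusted p = 0.0873). Between the accessions 5 were higher and 6 lower in Tsu-1, with a median of 0.01. The 39.3% called lie near the 35.0% of all loci called in this comparison. The signal peptide gene EPF2, which holds back entry into the lineage, was lower by 0.71 (adjusted p = 8.23e-06), the protease gene SDD1 by 0.48, ICE1, which encodes a partner of FAMA, by 0.36, EPF1, which encodes a peptide that acts through TMM and ERL1, by 0.28 and SPCH, the factor that starts the lineage, by 0.24. The SPCH means, 4.50 to 4.84, lay below 5.21 in all groups, as did the EPF2 mean in dry Tsu-1 (5.18). SERK2, a co-receptor kinase gene, was higher by 0.64, MKK5, of the kinase cascade below the receptors, by 0.52, FLP by 0.26, EPFL6, a peptide gene of the same family, by 0.21 and HDG2, an epidermal homeodomain gene, by 0.15.

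**Figure D3:**
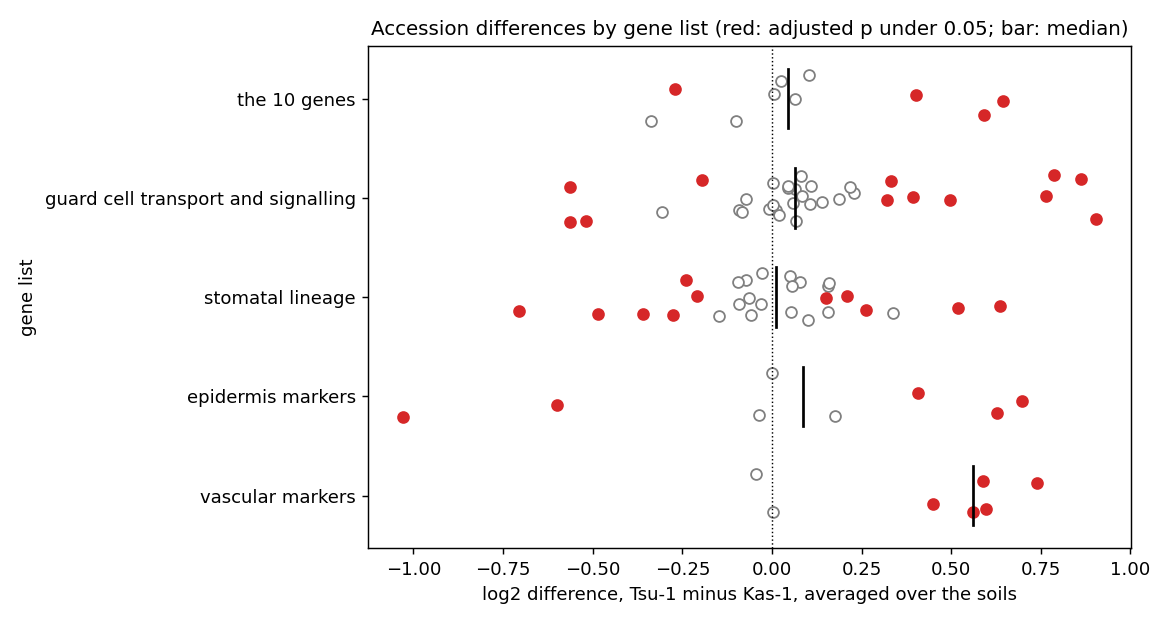
Log2 difference, Tsu-1 minus Kas-1, as the mean of both soils (horizontal axis), for every gene on the arrays of 5 lists (vertical axis); red points had an adjusted p under 0.05 and black bars are medians. The 10 genes, the transport list and the lineage list spread to both sides of 0, and 5 of 7 vascular markers lie to the right with a list median of 0.56.

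Markers of other leaf cells also differed between the accessions. Of 7 vascular markers 5 were higher in Tsu-1 and 0 lower, where 17.2% of all loci were higher and 17.8% lower. Their median difference was 0.56, and the higher ones were the phloem genes SUC2 (0.74), SULTR2;2 (0.60) and APL (0.59) and the xylem genes CESA7 (0.56) and XCP2 (0.45). Their mean log2 level per array was 7.40 to 7.83 (wet) and 7.60 to 7.75 (dry) for Kas-1 and 7.87 to 8.27 (wet) and 7.88 to 8.33 (dry) for Tsu-1, so the accessions did not overlap. KAT2 and AKT2 are known from phloem as well as guard cells, and the part of vascular tissue in their higher signal was not tested.

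Of 8 epidermis markers 3 were higher in Tsu-1 (KCS6 by 0.70, PDF2 by 0.63, CER5 by 0.41) and 2 lower (PDF1, -1.03, and LTP1, -0.60), where 35.0% of all loci were called in either direction. Their mean level overlapped, at 9.27 to 9.65 (wet) and 8.88 to 9.56 (dry) for Kas-1 and 9.38 to 9.95 (wet) and 8.82 to 9.56 (dry) for Tsu-1. Of 6 guard cell markers on the arrays, 5 of them among the 10 genes, KAT1 was higher and FAMA lower. The marker outside the 10 genes, GC1, averaged 8.86 over all arrays. Its accession difference was 0.24 (adjusted p = 0.341) and its averaged change on drying -0.36 (SE 0.18, adjusted p = 0.671), neither called by limma. The mean level of the 6 guard cell markers was 6.19 to 6.67 (wet) and 6.10 to 6.56 (dry) for Kas-1 and 6.30 to 6.92 (wet) and 6.00 to 6.73 (dry) for Tsu-1. On drying 0 of the epidermis, vascular and guard cell markers were called by limma. Of these markers 1, an epidermis marker, had an unadjusted p under 0.05, against 7.90% of all loci. The averaged drying changes of the 8 epidermis markers ran from -0.49 to -0.03, with a median of -0.16. Between the accessions the 3 trichome markers had 0 calls by limma (1 at an unadjusted p under 0.05), the 4 root markers 1 in each direction and the 4 flower markers 1 higher, to be read against the same 35.0%. The lower root marker, PYK10, and the higher flower marker, SEP3, had means below 5.21 in all groups. Their calls were thus made at signal not told apart from background. Whether the array probes match the sequences of both accessions equally was not tested.

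The 10 genes were also compared with each other across arrays, as deviations from the group means. Differences between the group means do not enter, but groups can still differ in spread and in correlation. Of 45 pairs, 4 had a Pearson correlation with an adjusted p under 0.05 in a permutation test of arrays within groups, and by rank 0 of 45 had (smallest adjusted p = 0.0688), with 11 of 45 at an unadjusted p under 0.05. HT1 and FAMA had r = 0.65 (permutation p = 0.00204, adjusted p = 0.0318) and rho = 0.65 (permutation p = 0.00153, adjusted p = 0.0688). MYB60 and KAT2 had r = 0.63 (permutation p = 0.00283, adjusted p = 0.0318) and rho = 0.57 (permutation p = 0.00778, adjusted p = 0.0751). KAT1 and KAT2 had r = 0.63 (permutation p = 0.00102, adjusted p = 0.0318) and rho = 0.55 (permutation p = 0.00654, adjusted p = 0.0751). QUAC1 and HT1 had r = 0.62 (permutation p = 0.00263, adjusted p = 0.0318) and rho = 0.55 (permutation p = 0.00835, adjusted p = 0.0751).

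HT1, in 2 of these 4 pairs, lay below 5.21 in every group, so these values relate signal not told apart from background to that of FAMA and QUAC1. Without the 2 arrays farthest from the median of the first gene, these 4 pairs had r = 0.62, 0.51, 0.53 and 0.44 in the same order. With consecutive arrays averaged to 3 per group, r was 0.44, 0.68, 0.49 and 0.42, and with numbers 3 apart averaged it was 0.79, 0.42, 0.81 and 0.80. For KAT1 and KAT2 the correlation within groups was 0.88 (wet) and 0.85 (dry) for Tsu-1, and 0.30 (wet) and 0.40 (dry) for Kas-1, where KAT1 lay at signal not told apart from background. Over the 4 groups it ran from 0.31 to 0.87 for HT1 and FAMA and from 0.36 to 0.80 for MYB60 and KAT2. For QUAC1 and HT1 it ran from 0.18 to 0.89. Since the arrays may not be independent plants, these p-values can be too small. The share of pairs of other loci that would pass was not counted, so the number of pairs does not set these genes apart.

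**Figure D4:**
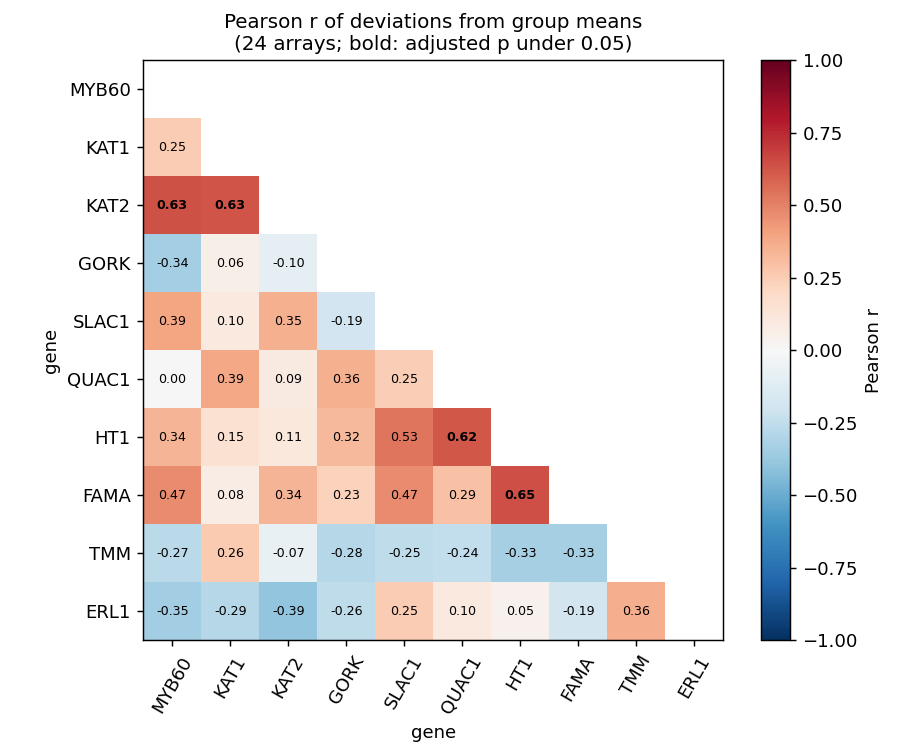
Pearson correlation (colour and number) of each pair of the 10 genes (both axes) over the 24 arrays after subtracting group means; bold numbers had an adjusted p under 0.05 over the 45 pairs. The bold pairs are MYB60 with KAT2, KAT1 with KAT2, QUAC1 with HT1 and HT1 with FAMA, at 0.62 to 0.65.

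Part of this variation followed an axis that runs through the whole array set. The first principal component of the deviations over the 12303 other loci above the 40th percentile held 46.9% of their variation, with Kas-1 dry 2 at its positive end. TMM was lower at that end (r = -0.70, permutation p = 8.20e-04, adjusted p = 0.00820, and rho = -0.70, permutation p = 5.80e-04, adjusted p = 0.00580, over 10 genes tested), and r was -0.65 without the 2 arrays farthest from the median of the score. Within the groups TMM had r = -0.71 (wet) and -0.91 (dry) for Kas-1, and -0.72 (wet) and -0.49 (dry) for Tsu-1. SLAC1 had r = 0.63 (permutation p = 0.00792, adjusted p = 0.0396) and rho = 0.57 (permutation p = 0.0153, adjusted p = 0.0511). HT1, again at signal not told apart from background, had r = 0.52 (permutation p = 0.0139, adjusted p = 0.0464) and rho = 0.56 (permutation p = 0.00723, adjusted p = 0.0361). Without the 2 farthest arrays r was 0.61 for SLAC1 and 0.59 for HT1, and without the 4 arrays of lowest weight it was 0.35 for SLAC1, 0.49 for HT1 and -0.61 for TMM. For SLAC1 the relation differed in size by group, with r = 0.85 in Kas-1 dry and 0.80 in Tsu-1 wet but 0.19 in Kas-1 wet and 0.11 in Tsu-1 dry, while for HT1 r was 0.49 to 0.59 in the groups. With numbers 3 apart averaged, r was 0.08 for SLAC1, 0.49 for HT1 and -0.81 for TMM, and with consecutive arrays averaged it was 0.72, 0.82 and -0.67. The share of all loci with an r of this size was not counted, so these values do not set TMM, SLAC1 and HT1 apart from other loci. The score averages 0 in each group by construction, and its part in the differences between groups was not tested.

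The loci whose deviations were most like those of each gene over the 24 arrays were read as a description, with no test, among the 15385 loci with a mean above 5.21. As the highest of so many, these r values are raised by the selection. For SLAC1 the second of them was MPK12, a mitogen-activated protein kinase gene of the transport list (r = 0.82, rho = 0.85), after AT4G02940 (r = 0.82) and before AT5G57610 (r = 0.81), and these 3 had r of 0.76 to 0.80 with the axis themselves. For TMM they were SBT1.3 (r = 0.90), AT1G33170 (r = 0.90) and AT1G29980 (r = 0.88), with r of -0.71 to -0.80 with the axis. For KAT1 they were NUDX26 (r = 0.87), TOM20-3 (r = 0.85) and AT3G49100 (r = 0.85), and for KAT2 TI2 (r = 0.79), AT5G12050 (r = 0.70) and AT3G05730 (r = 0.69). QUAC1 was closest to GPAT3 (r = 0.86), RALFL22 (r = 0.79) and PGSIP7 (r = 0.78), and ERL1 to AT2G03630 (r = 0.83), MMP and AT2G41890 (r = 0.75 each). For HT1 the closest was RFR1 (r = 0.83), for MYB60 AT5G52430 (r = 0.80), for GORK AT1G44478 (r = 0.77) and for FAMA VIIIA (r = 0.74).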

How the data were processed

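The values are log2 expression values from a table the authors deposited, 1 per locus and array. The log2 unit was read from the values (3.12 to 14.2). Per the submitters' processing notes the only tool named is MAS5; its role and version, the normalisation and the build are not given in the sources used here. Of 20514 loci, 20290 matched the RefSeq gene table for TAIR10.1, used for names only.

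The means of the 4 groups were estimated from all 24 arrays for all 20514 loci in R 4.3.3 with limma 3.58.1 (intensity trend), with Benjamini-Hochberg adjustment over all loci within each comparison. Two-sided adjusted p-values under 0.05 were called, and intervals are limma's 95% intervals for a single gene. No locus was filtered out, so that dim genes were tested too. Correlations used 100000 permutations of arrays within groups (scipy 1.17.1), adjusted over their family. The fit was tested on simulated data.

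Numbers are shared between the accessions (1 to 6 dry, 7 to 12 wet). Same-numbered arrays had deviations correlated at -0.361 to 0.506, with 4 of 12 pairs over 0.1, so they were not treated as pairs.

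All 10 genes are named. Of the other lists, up to 5 called genes in each direction are named, and loci most like a gene are its 3 closest by Pearson r. Lineage genes with an unadjusted p under 0.05 on drying, and the guard cell marker GC1, are named without a call. One called locus of the transport list, AT3G01490, has no symbol in RefSeq and was higher in Tsu-1 by 0.39. The genes, lists and tests were chosen with earlier results of these data known. No sequences or coordinates were used here.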

Additional observations from a re-analysis of the deposited data

Results flagged for a closer look

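In 1 of the 40 sets of 6 arrays (10 genes in 4 groups), a single array stood apart by Dixon's gap test, in which chance flags about 1 in 20 sets. For ERL1 in wet Tsu-1, array 9 had 7.12 while the next highest had 6.88, a gap of 0.663 of the range of the 6 arrays, above the 95% critical value. Array 9 had the second lowest array weight (0.404). Without it the Tsu-1 minus Kas-1 difference of ERL1 was 0.08 (adjusted p = 0.270) against 0.10 with it (adjusted p = 0.152), and neither was called by limma.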

How the results depend on the processing

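Results were recomputed under 35 other settings, 24 of which left out 1 array. No call on drying or on the interaction arose under any of them. Averaged over the soils, KAT1, KAT2, QUAC1 and FAMA were called under every setting that tested them, with differences of 0.54 to 0.78, 0.53 to 0.68, 0.36 to 0.46 and -0.31 to -0.25 (adjusted p at most 0.0400); KAT1 was not tested with the 40th percentile filter, which left 5 of the 10 genes. Leaving out 1 array gave 4 to 5 calls there, 0 to 2 in dry soil (2 in the full set) and 2 to 3 in wet soil. In dry soil 1 gene, KAT2, was called with array weights, without the 4 arrays of low weight, with Kas-1 dry 4 and 5 as 1 array and with the replicate block. With numbers 3 apart averaged the dry soil count was also 2, but of KAT2 and SLAC1, without FAMA. In wet soil the 40th percentile filter left 1, KAT2. The replicate block (accessions compared within soil and number) called 4 genes averaged over the soils, 2 in wet soil and 0 for the interaction; in dry soil FAMA lost its call (-0.34, adjusted p = 0.0529). Dry and wet arrays share no number, so no paired analysis of drying was possible. Of 2355 values of single genes compared with the full fit, 14 lost and 8 gained a call. The sign differed in 111, each called in neither fit, of which the largest was the TMM interaction (0.11, and -0.25 without the 4 arrays of low weight). The cause of these shifts was not tested. Counts over all loci moved more than those of the 10 genes: on drying in Kas-1, 1 locus was called, and 209 with array weights. The number of arrays, and signal near background for KAT1 and HT1, limit the precision.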
